A study of Rattus norvegicus with 20 samples.

Results

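Heat shock proteins and small chaperones were followed in cultured rat progenitor cells and in cells derived from them. The 10 genes, taken by symbol from the array annotation, were the small heat shock genes Cryab and Hspb1, the cytosolic chaperones Hspa1a, Hspa1b, Hspa8, Hsph1, Hsp90aa1 and Hsp90ab1, and the mitochondrial pair Hspd1 and Hspe1. All 10 were found, on 27 of the 8740 probe sets tested, out of 5147 annotated genes. The small heat shock genes had 7 probe sets, the cytosolic chaperones 16 and the mitochondrial pair 4. A probe set is the group of probes on an Affymetrix array that reads 1 transcript, and the probe sets of a gene are numbered; for the members the number follows mean intensity, brightest first.

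The 4 groups were low-density CCg progenitors given FBS, which the labels say derives astrocytes (FBS, 4 cultures on 6 arrays), the same progenitors given RA/Fsk, said to derive neurons (RA/Fsk, 4 cultures on 4 arrays), high-density progenitors (HD, 3 cultures on 6 arrays) and the untreated low-density CCg progenitors (LD, 3 cultures on 4 arrays). The abbreviations usually stand for fetal bovine serum, for retinoic acid and for forskolin, while CCg is not expanded in the labels. No strain, age, dose or treatment time is given, and the HD labels do not mention CCg, so density and CCg cannot be told apart between HD and LD. Arrays with the same group and number were averaged and are called a culture. Whether the numbers mark separately grown cells is not stated, so the spread behind each p-value may be technical.

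Molecular chaperones bind unfolded proteins and keep them from clumping. Small heat shock proteins hold such proteins without using ATP, HSP70 proteins fold them in cycles of ATP hydrolysis with HSP40 partners and with HSP110 proteins that exchange the nucleotide, and HSP90 proteins finish the folding of kinases and steroid receptors. In mitochondria a barrel of HSP60, the product of Hspd1, closed by a lid of HSP10, the product of Hspe1, encloses proteins while they fold. Heat shock factor 1 switches on many of these genes under stress by binding heat shock elements, inverted repeats of the unit GAA. Astrocytes are a known site of Cryab expression in the nervous system.

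Some annotations were shared. Hspa8 was represented only by 2 probe sets also annotated to Haus8l2, and Hspa1b only by 4 probe sets shared with its near-identical copy Hspa1a, which had 1 probe set of its own. Hsp90aa1 shared 2 probe sets with the pseudogene Hsp90aa1-ps17 and another with 9 other genes, and 1 of the 5 Hspb1 probe sets was shared with Asb2. For these the source of the signal cannot be assigned to 1 gene. In all, 21 of the 27 probe sets were annotated to members only.

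Start regions of 4 members are shown because these stretches differ in how many matches to heat shock elements they hold. The windows are RefSeq sequence of build GRCr8, from 250 bases before to 50 after the transcript start that the table uses, and 7 of the 10 members had one. For Hspd1 and Hsp90ab1 that start lies inside the annotated gene span. Both strands were searched for 2-unit elements, GAA and TTC in either order with any 2 bases between them, and for 3-unit elements, in which a further unit follows in the same alternation, so that each contains overlapping 2-unit elements. Capitals mark matches. The Hspb1 window is chr12:26432252-26432551 on the minus strand, that of Hspa1a chr20:3859506-3859805, that of Hspa8 chr8:50080264-50080563 and that of Hspe1 chr9:64084077-64084376, these on the plus strand.
Hspb1: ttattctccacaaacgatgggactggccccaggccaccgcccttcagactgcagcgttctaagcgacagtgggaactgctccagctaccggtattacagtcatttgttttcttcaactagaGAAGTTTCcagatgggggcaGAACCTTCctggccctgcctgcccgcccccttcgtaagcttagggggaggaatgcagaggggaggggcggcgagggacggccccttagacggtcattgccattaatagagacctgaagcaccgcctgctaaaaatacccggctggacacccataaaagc
Hspa1a: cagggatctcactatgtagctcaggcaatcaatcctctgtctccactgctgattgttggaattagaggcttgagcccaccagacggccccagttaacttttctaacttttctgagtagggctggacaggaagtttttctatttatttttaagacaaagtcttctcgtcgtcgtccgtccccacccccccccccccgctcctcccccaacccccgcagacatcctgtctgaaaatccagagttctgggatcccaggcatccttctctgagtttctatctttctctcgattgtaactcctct
Hspa8: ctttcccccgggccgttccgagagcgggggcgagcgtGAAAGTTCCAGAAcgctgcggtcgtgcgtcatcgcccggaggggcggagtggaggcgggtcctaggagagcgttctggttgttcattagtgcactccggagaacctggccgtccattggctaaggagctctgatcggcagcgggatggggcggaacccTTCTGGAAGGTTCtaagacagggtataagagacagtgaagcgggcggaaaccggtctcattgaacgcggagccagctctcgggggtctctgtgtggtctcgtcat
Hspe1: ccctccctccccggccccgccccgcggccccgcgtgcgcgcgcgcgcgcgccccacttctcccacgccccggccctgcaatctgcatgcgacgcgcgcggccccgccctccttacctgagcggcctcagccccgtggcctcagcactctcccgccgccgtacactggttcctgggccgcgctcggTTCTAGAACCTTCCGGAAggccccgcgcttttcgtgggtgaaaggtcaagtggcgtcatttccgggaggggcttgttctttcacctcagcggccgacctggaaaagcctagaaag

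The Hspa8 window held 4 overlapping 2-unit matches that form 2 3-unit elements, and the Hspe1 window held 3 that also form 2. The Hspd1 window, chr9:64083988-64084287 on the minus strand, shares 211 bases with that of Hspe1, so the same matches lie in the shared start region of the mitochondrial pair. Hspb1 held 2 separate 2-unit matches, and Hsph1 held 3 with 1 3-unit element. The windows of Hspa1a and Hsp90ab1 held 0 such matches. Sequence outside the windows was not searched, so elements elsewhere in these genes are not counted. Of 33469 rat start regions of the same length, 15.9% held a 2-unit match and 0.798% a 3-unit match. These matches describe letters in the window and do not show that a factor binds there.

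The deposited values are linear intensities. The arrays appear scaled to a common level, since their means after leaving out 2% of values at each end ran from 200.3 to 200.5, and array medians ran from 41.0 to 57.5. Differences below are the first-named group minus the second on the log2(intensity + 4.99) scale, with the standard error (SE), from 1 limma fit to all 4 groups. Folds are on the same scale and understate changes of dim probe sets. The threshold was an adjusted p under 0.05, by Benjamini-Hochberg across the 8740 probe sets. The cultures labelled for astrocytes and for neurons were checked against marker lists. In FBS against LD 10 of 18 astrocyte probe sets passed upward, with Aldoc, Glul, S100b and Slc1a3 among them, and 1 passed downward, and 2 of 16 neuron probe sets, of Map2 and Nefm, passed upward, where 13.2% of all probe sets rose. In RA/Fsk against LD 7 of 18 astrocyte and 0 of 16 neuron probe sets passed upward, and 1 neuron probe set, of Gap43, passed downward, where 4.71% of all probe sets rose and 3.54% fell. Gfap, Tubb3, Stmn2 and Rbfox3 were not represented under their symbols.

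Serum-treated cultures were set against their untreated progenitors first. Cryab rose 41.7-fold and 51.0-fold in its 2 probe sets in the FBS cultures, 4 of the 5 probe sets annotated to Hspa1a, alone or with Hspa1b, rose as well, and the 2 probe sets shared by Hspa8 and Haus8l2, 2 of the 4 of Hsp90ab1 and all 4 mitochondrial ones fell. Of the 27 probe sets 6 rose and 8 fell, and 13 did not pass, where 25.5% of all probe sets changed, 13.2% upward and 12.3% downward. FBS and LD cultures were fully separated for 6 probe sets higher and 8 lower in FBS, and over all probe sets 16.9% were higher and 18.5% lower in FBS without overlap. The small heat shock set had 2 of 7 up and 0 down, the cytosolic set 4 of 16 up and 4 down, and the mitochondrial set 0 of 4 up and 4 down. Their median differences were 0.19, -0.32 and -0.84 log2, against -0.09 over all probe sets and -0.43 over the brightest 5% by mean.

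**Figure D1:**
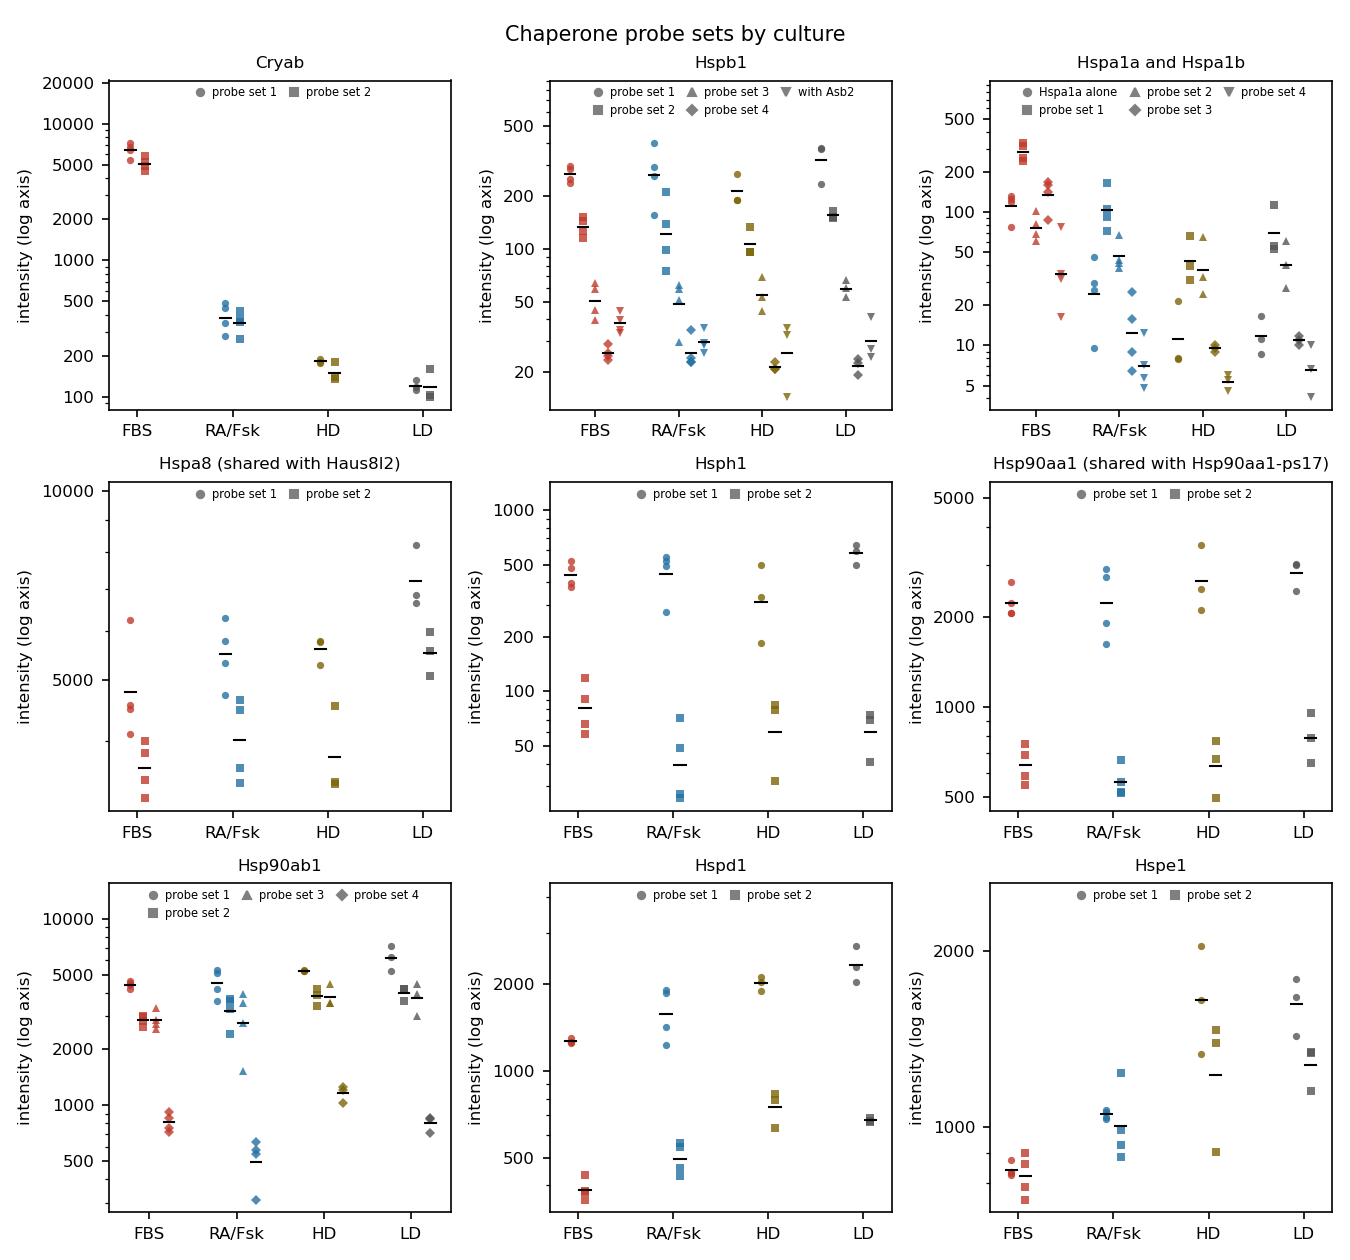
Intensity of the member probe sets in every culture, on log axes, for FBS, RA/Fsk, HD and LD. The Hsp90aa1 probe set shared with several other genes is not drawn. Points are cultures, shapes are probe sets as in each legend, and short lines are means of the log values. Cryab lies between 4542 and 7199 in FBS and at 486 or below elsewhere, while the Hspe1 points of FBS lie below those of LD.

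Cryab encodes alpha-B crystallin, a small heat shock protein of lens, muscle and glia. RefSeq places the gene at chr8:59989885-59995532 of GRCr8. Cryab probe set 1 read 6468, 5429, 6740 and 7199 in the FBS cultures, 277, 450, 347 and 486 in the RA/Fsk cultures, 188, 181 and 178 in the HD cultures, and 119, 133 and 112 in the LD cultures. The 4 groups did not overlap, and the order ran from FBS through RA/Fsk and HD to LD. On the log2 scale the levels were 12.65 ± 0.17 in FBS (SD, n = 4), 8.59 ± 0.36 in RA/Fsk (n = 4), 7.55 ± 0.04 in HD (n = 3) and 6.98 ± 0.12 in LD (n = 3). Cryab probe set 2 read 5828, 4542, 5301 and 4889 in FBS, 374, 427, 266 and 352 in RA/Fsk, 139, 135 and 181 in HD, and 103, 159 and 99.6 in LD. Only HD and LD overlapped in this probe set.

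The rise of Cryab in FBS over LD was 5.67 ± 0.17 log2 for probe set 1 (SE, a 51.0-fold difference, adjusted p = 1.91e-12) and 5.38 ± 0.19 for probe set 2 (41.7-fold, adjusted p = 1.02e-11), by limma. Probe set 1 had the smallest p of all probe sets in that comparison. In RA/Fsk over LD it rose by 1.61 ± 0.17 (3.06-fold, adjusted p = 1.24e-05) and 1.53 ± 0.19 (2.89-fold, adjusted p = 5.46e-05). The difference between the treatments was itself past the threshold, since RA/Fsk lay below FBS by 4.06 ± 0.16 and 3.85 ± 0.17 log2 (adjusted p = 1.13e-10 and 2.35e-10 by limma). HD was above LD by 0.57 ± 0.18 in probe set 1 and 0.34 ± 0.20 in probe set 2, and neither passed (adjusted p = 0.163 and 0.477). Set against HD, progenitors that are not the LD cultures, FBS was higher by 5.10 and 5.04 log2 and RA/Fsk by 1.04 and 1.19, all past the threshold.

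Marker lists of several cell types were summed beside Cryab. Of the sums below, only that of the muscle and myofibroblast list had FBS above all other groups without overlap, as Cryab did. The summed intensity of 18 astrocyte probe sets was 10177 to 13953 in FBS, 12522 to 14610 in RA/Fsk, 6123 to 8221 in HD and 3878 to 4587 in LD. That of 11 muscle and myofibroblast probe sets was 773 to 1344 in FBS, 190 to 322 in RA/Fsk, 168 to 286 in HD and 238 to 317 in LD, and Acta2 and Tagln passed upward in FBS among its 6 genes, while the median difference of that list was -0.01. The sum of 11 oligodendrocyte probe sets was 1359 to 1721 in FBS, 1889 to 3152 in RA/Fsk, 1265 to 1282 in HD and 1335 to 1578 in LD. Against LD, Cnp and Mbp passed upward in RA/Fsk, and Mbp also passed upward in FBS. Of 10 progenitor probe sets 0 rose and 5 fell in FBS against LD, and 0 passed in RA/Fsk against LD. Over all probe sets 13.2% rose and 12.3% fell in FBS, and 4.71% rose and 3.54% fell in RA/Fsk. Neuron probe sets summed to 1545 to 1779 in FBS, 1394 to 1690 in RA/Fsk, 1754 to 2669 in HD and 1539 to 1731 in LD. No marker was listed at 0, and the part of these cells in the Cryab values was not tested. In bulk cultures more cells of a type and more RNA per cell cannot be told apart.

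Hspb1 encodes HSP27, a small heat shock protein that also binds actin filaments. Hspb1 probe set 1 read 237, 298, 250 and 285 in FBS, 399, 292, 156 and 260 in RA/Fsk, 268, 189 and 190 in HD, and 378, 235 and 373 in LD. The groups overlapped. Against LD the difference was -0.27 ± 0.25 log2 in FBS (95% interval -0.80 to 0.27, adjusted p = 0.506) and -0.28 ± 0.25 in RA/Fsk (-0.82 to 0.25, adjusted p = 0.603). None of the 5 Hspb1 probe sets passed in any of the 6 comparisons of the groups, at unadjusted p values down to 0.0478, that of probe set 1 in HD against LD at -0.58 ± 0.27. Hspb1 probe set 2 read 115 to 152 in FBS, 74.8 to 211 in RA/Fsk, 96.1 to 134 in HD and 151 to 164 in LD. The 3 dimmer probe sets, with 14.4 to 69.3 in all cultures, lay near or below the array medians (41.0 to 57.5). With the ratio of the 5' to the 3' GAPDH control, a measure of RNA integrity, as a covariate, probe set 2 fell in FBS by 0.81 log2 (adjusted p = 0.0444). That ratio was -0.06 ± 0.07 log2 in FBS (SD, n = 4), -0.29 ± 0.17 in RA/Fsk (n = 4), -0.06 ± 0.13 in HD (n = 3) and -0.33 ± 0.13 in LD (n = 3). It was higher in FBS and HD than in RA/Fsk and LD. Because the ratio differs with group, the covariate fit cannot part its share from that of the group. Its part in the results was not tested beyond that fit.

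**Figure D2:**
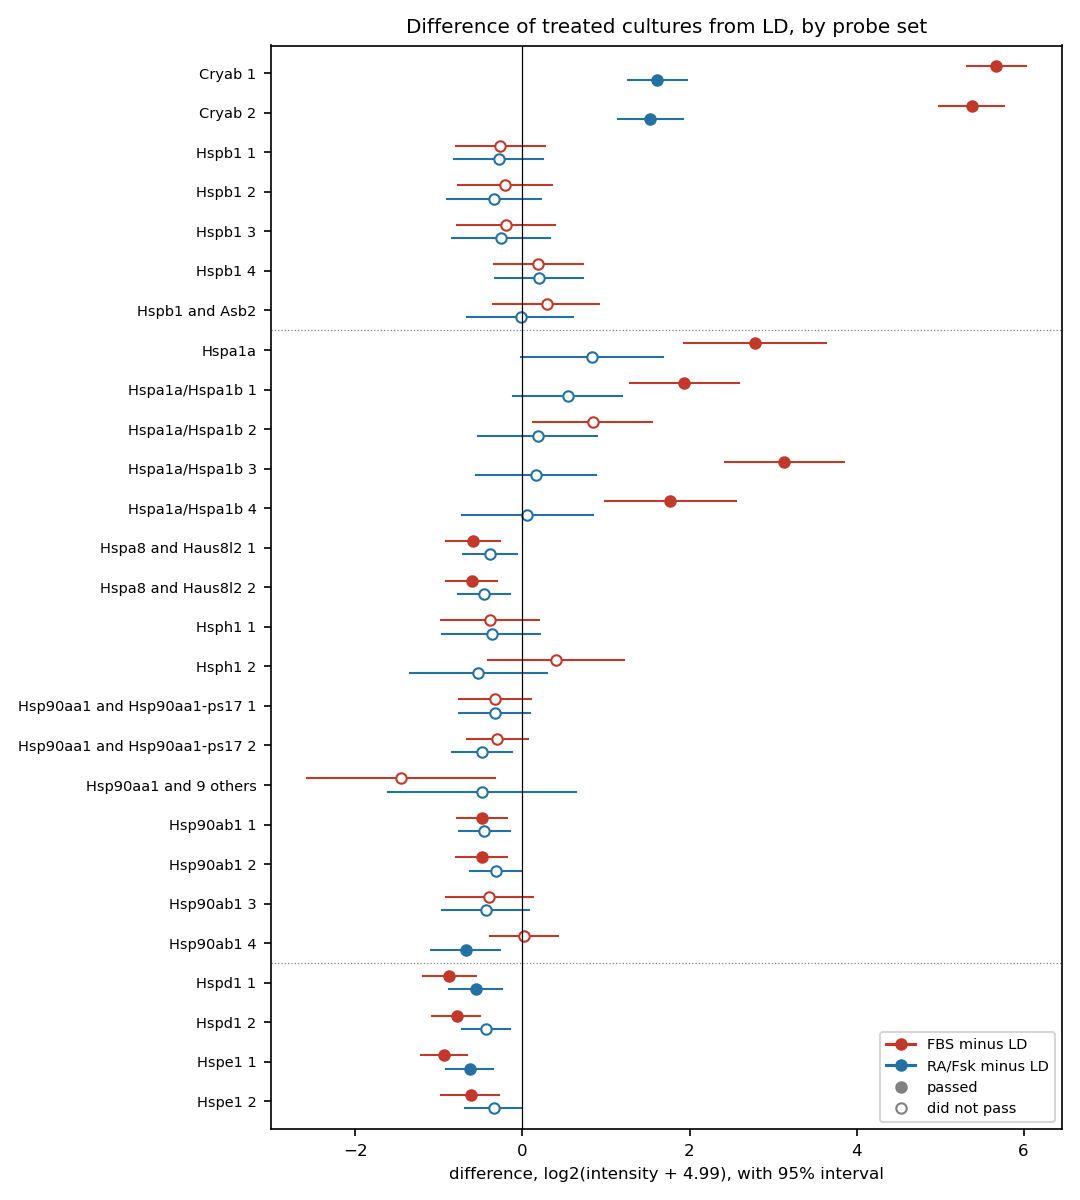
Difference of FBS and of RA/Fsk cultures from LD for each of the 27 member probe sets, in log2(intensity + 4.99) with 95% intervals. Filled points passed at an adjusted p under 0.05, and dotted lines part small heat shock, cytosolic and mitochondrial members from top to bottom. The 2 Cryab probe sets stand to the right in both comparisons and the mitochondrial ones lie left of 0.

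Hspa1a and Hspa1b encode the stress-inducible cytosolic HSP70. The Hspa1a probe set read 125, 119, 77.0 and 132 in FBS, 46.3, 29.5, 9.5 and 26.2 in RA/Fsk, 21.7, 7.86 and 8.11 in HD, and 16.6, 11.2 and 8.7 in LD. FBS cultures lay above all others, and the other groups overlapped. It rose by 2.78 ± 0.40 log2 in FBS over LD (6.88-fold, adjusted p = 5.31e-05) and lay 0.83 ± 0.40 above LD in RA/Fsk (adjusted p = 0.255). Hspa1a/Hspa1b probe set 3 read 167, 141, 87.2 and 159 in FBS, 9.0, 6.4, 25.2 and 15.8 in RA/Fsk, 10.1, 9.58 and 8.94 in HD, and 11.8, 11 and 10 in LD. It rose by 3.13 ± 0.34 in FBS (8.77-fold, adjusted p = 2.95e-06), and RA/Fsk differed from LD by 0.16 ± 0.34 (adjusted p = 0.858).

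The brightest shared probe set, Hspa1a/Hspa1b 1, read 328, 314, 240 and 257 in FBS, 165, 92.5, 105 and 72.1 in RA/Fsk, 65.8, 39.2 and 31.1 in HD, and 114, 55.6 and 53.1 in LD. It rose by 1.94 ± 0.31 in FBS (adjusted p = 0.000134), and in RA/Fsk it was 0.54 ± 0.31 above LD (adjusted p = 0.347) and 1.17 ± 0.31 above HD (adjusted p = 0.0222). The call against HD ended without HD culture 2 (0.0806), HD culture 4 (0.122) or RA/Fsk culture 1 (0.0592), and with only these groups (0.0714). Probe set 4 rose by 1.77 ± 0.37 in FBS (adjusted p = 0.00161), with FBS culture 4 at 77.6 and the other 3 at 16.3 to 34.6, and did not pass with the GAPDH ratio as a covariate (adjusted p = 0.079). It was dim, with LD cultures at 4.1 to 10.1. Single arrays of FBS and LD overlapped, since an array of FBS culture 3 read 9.3 and an array of LD culture 1 read 11.3. Probe set 2 was 0.84 ± 0.34 higher in FBS and did not pass (adjusted p = 0.0822). Its groups overlapped, with 60.3 to 102 in FBS, 38.4 to 67.0 in RA/Fsk, 24.2 to 64.8 in HD and 26.8 to 61.0 in LD. RA/Fsk lay below FBS past the threshold in 4 of these 5 probe sets, with differences of -1.40 to -2.97 log2, and probe set 2 was the exception (-0.66 ± 0.31, adjusted p = 0.177). The GAPDH covariate ended that call for probe sets 1 and 4 (adjusted p = 0.0714 and 0.0629).

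Hspa8 encodes the constitutive cytosolic HSP70, which also uncoats clathrin vesicles. Its brighter probe set, shared with Haus8l2, read 4101, 4556, 4490 and 6246 in FBS, 5781, 4727, 5328 and 6292 in RA/Fsk, 5753, 5280 and 5771 in HD, and 8221, 6844 and 6636 in LD. LD cultures lay above all the others. The fall in FBS was -0.59 ± 0.15 log2 (adjusted p = 0.00694), and that of the second probe set -0.61 ± 0.15 (adjusted p = 0.00444). In RA/Fsk the differences were -0.39 ± 0.15 and -0.46 ± 0.15 and did not pass (adjusted p = 0.135 and 0.0623). In HD they were -0.36 ± 0.16 and -0.55 ± 0.16 (adjusted p = 0.325 and 0.119).

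Some members, both Hspa8 probe sets among them, belong to the brightest on the array, where a fall in FBS was common. Of the 437 probe sets in the brightest 5% by mean, 52.2% fell and 13.7% rose in FBS against LD, with a median of -0.43 log2, and 7 of them are members. Hspd1 probe set 1 is among these, with a mean at percentile 96.3. Those of Hspe1 lie just below, at percentiles 94.7 and 94.1. Quantile normalization, which gives all arrays the same distribution of values, left the Hspa8 differences at -0.07 and -0.11 (adjusted p = 0.754 and 0.66).

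Hsp90ab1 encodes the constitutive cytosolic HSP90. Hsp90ab1 probe set 1 read 4517, 4390, 4649 and 4194 in FBS, 3604, 5122, 4206 and 5277 in RA/Fsk, 5226, 5323 and 5259 in HD, and 5259, 6264 and 7132 in LD. Probe sets 1 and 2 fell in FBS by 0.48 ± 0.14 and 0.49 ± 0.15 log2 (adjusted p = 0.0192 and 0.0193), but under quantile normalization probe set 1 turned to 0.04 and probe set 2 to -0.14 (adjusted p = 0.899 and 0.517). Both calls also ended with the GAPDH ratio as a covariate (adjusted p = 0.239 and 0.321), without an intensity trend (0.0553 and 0.0563), without LD culture 3 (0.0601 and 0.074) and without LD culture 4 (0.109 and 0.0688). That of probe set 1 ended without FBS culture 4 (0.0514), and that of probe set 2 without FBS culture 2 (0.0571) and with median centring (0.0591). Probe set 3 did not pass (-0.40 ± 0.25, adjusted p = 0.281), nor did probe set 4 (0.02 ± 0.19, adjusted p = 0.964).

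Hsp90ab1 probe set 4 behaved apart from the other 3. It read 722, 858, 751 and 923 in FBS, 546, 311, 576 and 631 in RA/Fsk, 1200, 1029 and 1257 in HD, and 712, 842 and 855 in LD. RA/Fsk was lowest and HD highest, and neither overlapped another group. It fell in RA/Fsk against LD by 0.68 ± 0.19 log2 (adjusted p = 0.0409), against FBS by 0.69 ± 0.18 (adjusted p = 0.0113, and 0.153 with the GAPDH covariate) and against HD by 1.21 ± 0.19 (adjusted p = 0.00082). HD was 0.53 ± 0.21 above LD, which did not pass (adjusted p = 0.264). Over the 14 cultures probe set 4 correlated with probe sets 1, 2 and 3 at r = 0.26, 0.30 and 0.46, while those 3 correlated with each other at 0.71 to 0.88, values that share groups and arrays.

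Hsp90aa1, the stress-inducible cytosolic HSP90, did not pass in any comparison. Its brighter probe set, shared with Hsp90aa1-ps17, read 2073, 2619, 2228 and 2060 in FBS, 1631, 2911, 1912 and 2727 in RA/Fsk, 3500, 2492 and 2123 in HD, and 2441, 3024 and 3003 in LD. All groups overlapped, and the differences from LD were -0.33 ± 0.20 in FBS (95% interval -0.76 to 0.10, adjusted p = 0.273) and -0.33 ± 0.20 in RA/Fsk (-0.76 to 0.09, adjusted p = 0.389). The other probe set shared with Hsp90aa1-ps17 read 550 to 755 in FBS, 516 to 665 in RA/Fsk, 495 to 773 in HD and 651 to 958 in LD. Its differences from LD were -0.30 ± 0.17 in FBS and -0.49 ± 0.17 in RA/Fsk (95% interval -0.85 to -0.12), and neither passed (adjusted p = 0.25 and 0.104). The probe set shared with 9 other genes read 0.9 to 24.8 in FBS, 6.3 to 53.0 in RA/Fsk, 13.5 to 20.4 in HD and 23.1 to 46.4 in LD. It lay 1.46 ± 0.53 below LD in FBS without passing (adjusted p = 0.0556), and passed under 11 of 27 alternatives.

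Hsph1 encodes HSP105, the nucleotide exchange factor of HSP70. Hsph1 probe set 1 read 477, 397, 377 and 523 in FBS, 275, 524, 554 and 490 in RA/Fsk, 333, 496 and 185 in HD, and 501, 645 and 596 in LD. HD cultures lay below LD cultures without overlap, by 0.87 ± 0.30 log2, and did not pass (adjusted p = 0.196). Single arrays overlapped, since those averaged as HD culture 2 read 656.5 and 374.6 and LD arrays read 475.7 to 645.3. The treated cultures overlapped LD, with differences of -0.39 ± 0.28 in FBS and -0.37 ± 0.28 in RA/Fsk (adjusted p = 0.353 and 0.509). Probe set 2 read 25.7 to 119 over all cultures, and its difference from LD had opposite signs, 0.40 ± 0.39 in FBS and -0.53 ± 0.39 in RA/Fsk, neither of which passed.

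The mitochondrial pair fell together in serum. Hspd1 and Hspe1 lie head to head on chromosome 9 of GRCr8, with annotated spans that meet, chr9:64073610-64084332 for Hspd1 and chr9:64084327-64087415 for Hspe1. Hspd1 probe set 1 read 1258, 1244, 1261 and 1299 in FBS, 1227, 1900, 1417 and 1858 in RA/Fsk, 2034, 2110 and 1896 in HD, and 2041, 2709 and 2287 in LD. Both treated groups lay below LD without overlap. Hspd1 probe set 2 read 383, 434, 357 and 379 in FBS, 460, 544, 430 and 561 in RA/Fsk, 791, 832 and 631 in HD, and 669, 688 and 665 in LD. Again every treated culture was below every LD culture.

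Hspe1 probe set 1 read 878, 835, 826 and 832 in FBS, 1060, 1038, 1032 and 1069 in RA/Fsk, 1650, 2038 and 1330 in HD, and 1787, 1670 and 1432 in LD. FBS was lowest and RA/Fsk lay between FBS and the progenitors, without overlap on either side. Hspe1 probe set 2 read 863, 903, 790 and 750 in FBS, 888, 1234, 988 and 931 in RA/Fsk, 1463, 1391 and 905 in HD, and 1341, 1338 and 1152 in LD. In FBS against LD, Hspd1 fell by 0.88 ± 0.15 and 0.79 ± 0.13 log2 (adjusted p = 0.000244 and 0.00025) and Hspe1 by 0.94 ± 0.13 and 0.62 ± 0.16 (adjusted p = 3.95e-05 and 0.00805). The call of Hspe1 probe set 2 ended with the GAPDH covariate, at -0.63 (adjusted p = 0.0552). Against HD the falls were 0.67, 0.94, 0.96 and 0.57 log2 in the same order, all past the threshold. That of Hspe1 probe set 2 against HD ended without an intensity trend (adjusted p = 0.0506), without HD culture 1 (0.107), HD culture 2 (0.0948) or FBS culture 4 (0.0506). Over the 14 cultures the Hspd1 and Hspe1 probe sets correlated with each other at r = 0.81 to 0.95, values that share groups and arrays.

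The comparison of RA/Fsk with LD had fewer calls. Of the 27 probe sets, the 2 of Cryab rose, and Hsp90ab1 probe set 4, Hspd1 probe set 1 and Hspe1 probe set 1 fell, where 8.25% of all probe sets changed, 4.71% upward and 3.54% downward. Without overlap between cultures, 2 were higher and 6 lower in RA/Fsk, against 7.16% and 8.39% of all probe sets. The medians were -0.02 for the small heat shock set, -0.38 for the cytosolic set and -0.50 for the mitochondrial set, against -0.05 over all probe sets. Over the brightest 5% by mean the median was -0.21, with quartiles of -0.40 and 0.13. Hspd1 fell by 0.56 ± 0.15 (adjusted p = 0.0253) and lay 0.44 ± 0.13 lower in probe set 2 (adjusted p = 0.0546). Hspe1 fell by 0.63 ± 0.13 (adjusted p = 0.00622) and lay 0.34 ± 0.16 lower in probe set 2 (adjusted p = 0.237). This comparison shares the LD cultures with that of FBS.

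Cultures of RA/Fsk and LD that carry the same number deviated together, so the pairing was also fitted. With the number as a block in the fit of all groups, the adjusted p was 0.0525 for Hsp90ab1 probe set 4, which no longer passed, while Hspd1 probe set 2 (0.0283) and Hsp90ab1 probe set 1 (0.0488) also fell. With the block and only these groups, Hspe1 probe set 1 alone fell (adjusted p = 0.0412), Hspd1 probe set 1 stood at 0.0599 and Hsp90ab1 probe set 4 at 0.0974. Cryab rose in both fits (adjusted p = 9.08e-05 and 0.000425 with all groups, 0.0105 and 0.0222 with these alone). The Hspd1 call ended without LD culture 3 (0.137), LD culture 4 (0.0632), RA/Fsk culture 1 (0.0503) or RA/Fsk culture 3 (0.0526), and that of Hsp90ab1 probe set 4 ended under 14 of 29 alternatives.

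Between the treatments themselves, RA/Fsk against FBS, 0 of 27 probe sets rose and 7 fell, where 18.4% of all changed, 8.27% upward and 10.1% downward. The 7 are the 2 of Cryab, the Hspa1a probe set, Hspa1a/Hspa1b 1, 3 and 4, and Hsp90ab1 probe set 4. The mitochondrial probe sets lay 0.28 to 0.35 log2 above FBS in RA/Fsk and did not pass (adjusted p = 0.0611 to 0.247). With median centring, which moved the median of all differences to 0.16, against 0.06 as reported, Hspd1 probe set 2 passed (adjusted p = 0.031) and Hsp90ab1 probe set 4 did not (0.0544).

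Between the progenitor states, HD against LD, limma called 0 of 27 probe sets in either direction, where 0.858% of all probe sets changed, 0.435% upward and 0.423% downward. At an unadjusted p under 0.05 there were 6, where 13.8% of all probe sets passed the same threshold, namely Cryab 1, Hspb1 1, Hspa8 1 and 2, Hsph1 1 and Hsp90ab1 4. The small heat shock, cytosolic and mitochondrial medians were -0.11, -0.16 and -0.02, against -0.08 over all probe sets. When each array counted as its own sample, Cryab probe set 1 (adjusted p = 0.0255) and Hsp90ab1 probe set 4 (0.0496) passed upward and Hspa8 probe set 2 (0.0107) downward, but such arrays are not separate cultures.

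HD served as a second progenitor level for the treatments. In FBS against HD 6 member probe sets rose and 5 fell, where 21% of all changed, 11.3% upward and 9.7% downward. Those that rose are the 2 of Cryab, Hspa1a, and Hspa1a/Hspa1b 1, 3 and 4, and those that fell are the 4 mitochondrial ones and Hsp90ab1 probe set 2. That last one, at -0.42 ± 0.15 (adjusted p = 0.0493), lost its call under 15 of its alternatives. Hspa8, called against LD, lay 0.23 ± 0.15 and 0.06 ± 0.15 below HD in FBS and did not pass (adjusted p = 0.373 and 0.868). In RA/Fsk against HD 3 rose and 3 fell, where 10.2% changed, 4.85% upward and 5.32% downward. The rises are the 2 of Cryab and Hspa1a/Hspa1b probe set 1, and the falls Hsp90ab1 probe set 4, Hspd1 probe set 2 (-0.58 ± 0.13, adjusted p = 0.00976) and Hspe1 probe set 1 (-0.65 ± 0.13, adjusted p = 0.00447). The Hspd1 call ended without HD culture 2 (0.0569), with the GAPDH covariate (0.0675) and with only these groups (0.0689).

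Other chaperone and stress genes were counted from lists, over probe sets with a single symbol. Many listed genes had no such probe set. Represented were 3 of 7 genes of the small heat shock and crystallin list and 14 of 31 of the HSP40 and co-chaperone list. Among other small heat shock and crystallin genes in FBS against LD, 2 of 5 probe sets rose and 0 fell, where 13.2% of all probe sets rose and 12.3% fell. Both rises were of Hspb6, which encodes HSP20, a small heat shock protein of muscle. Hspb6 probe set 1 read 224, 246, 178 and 223 in FBS, 74.8, 79.9, 47.9 and 56.5 in RA/Fsk, 88.7, 81.2 and 116 in HD, and 42.2, 42.8 and 58.5 in LD. FBS lay above every other culture, with rises of 2.08 ± 0.22 and 1.44 ± 0.39 log2 for the 2 probe sets (adjusted p = 2.52e-06 and 0.0106), and the second lost its call with the GAPDH covariate (0.139). The gene of Hspb2, which overlaps that of Cryab in the RefSeq table (chr8:59989640-59991215), had 2 probe sets that did not pass, and the brighter one read 95.2, 84.5, 64.0 and 46.4 in FBS and 98.2, 100 and 57.5 in LD.

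**Figure D3:**
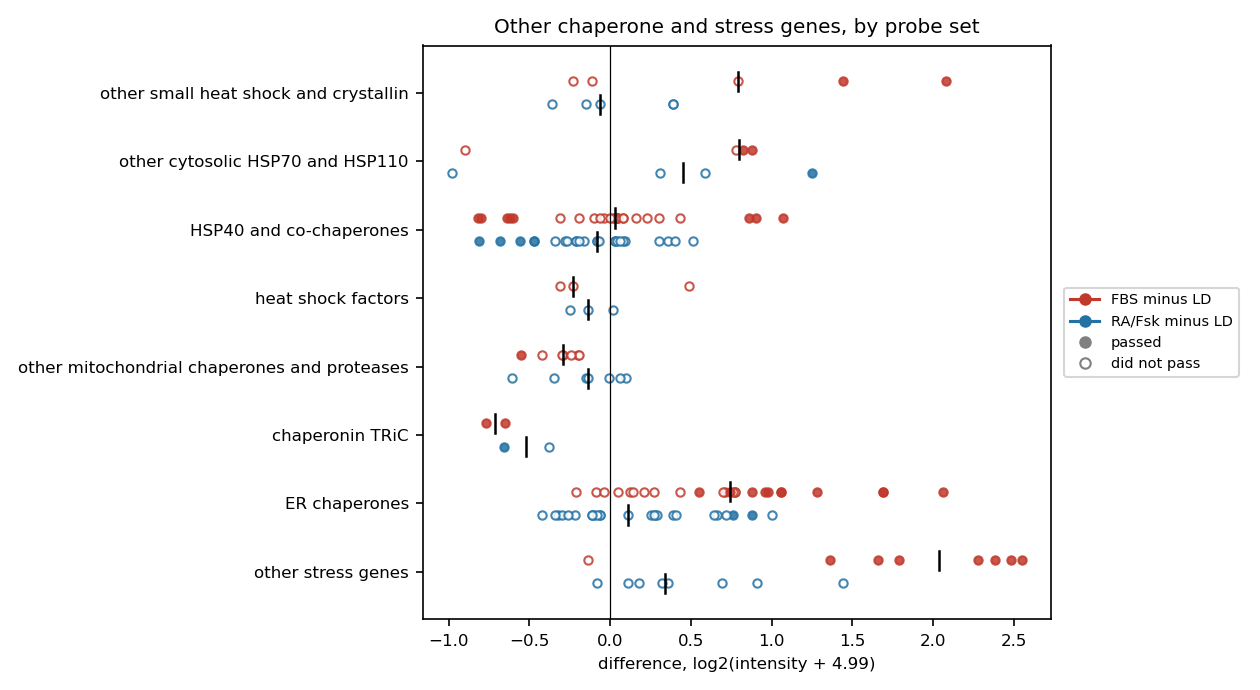
Difference of FBS and of RA/Fsk from LD for each single-symbol probe set of 8 other chaperone and stress lists, in log2(intensity + 4.99). Filled points passed at an adjusted p under 0.05 and vertical ticks are list medians. The endoplasmic reticulum chaperones (ER chaperones) and other stress genes lie mostly right of 0 in FBS, with medians of 0.74 and 2.04.

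Of the other cytosolic HSP70 and HSP110 genes 2 of 4 probe sets rose in FBS and 0 fell, those of Hspa2 (0.82 ± 0.27, adjusted p = 0.0344) and Hspa4 (0.88 ± 0.28, adjusted p = 0.0292), calls lost under 8 of 27 and 9 of 28 alternatives. In RA/Fsk 1 of the 4 rose, that of Hspa2 (1.25 ± 0.27, adjusted p = 0.00793), a call lost with only RA/Fsk and LD in the fit, with and without the replicate block (adjusted p up to 0.104 over the alternatives). Of 25 HSP40 and co-chaperone probe sets 3 rose and 5 fell in FBS, where 13.2% of all probe sets rose and 12.3% fell. Dnaja4, an HSP40, rose by 1.07 ± 0.16 in its brighter probe set (adjusted p = 9.13e-05). Fkbp4, a co-chaperone that links HSP90 to steroid receptors, fell by 0.80 ± 0.14 in probe set 3 (adjusted p = 0.000298). St13, which links HSP70 to HSP90, fell by 0.60 ± 0.12 in probe set 2 (adjusted p = 0.00111). Probe set 1 of each did not pass, at -0.19 for Fkbp4 and 0.02 for St13. In RA/Fsk 0 rose and 4 fell, 3 of Fkbp4 and 1 of St13, where 3.54% of all probe sets fell. These falls numbered 0 to 5 over the alternatives, and none of the 4 calls held with the replicate block and only RA/Fsk and LD.

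The TRiC chaperonin is the cytosolic counterpart of HSP60, and 2 of its 8 listed genes were represented, by 1 probe set each. Both probe sets fell in FBS, where 12.3% of all probe sets fell. Cct3 read 897, 694, 788 and 760 in FBS, 734, 777, 882 and 1004 in RA/Fsk, 1196, 1274 and 1122 in HD, and 1365, 1338 and 1315 in LD. It fell by 0.77 ± 0.13 in FBS (adjusted p = 0.000187) and by 0.66 ± 0.13 in RA/Fsk (adjusted p = 0.00335, and 0.055 with the replicate block and only these groups). Cct6a fell by 0.65 ± 0.15 in FBS (adjusted p = 0.00327). Of 7 probe sets of other mitochondrial chaperones and proteases, 0 rose and 1 fell in FBS, that of Trap1, the mitochondrial HSP90, by 0.55 ± 0.18 (adjusted p = 0.0313, lost under 8 of 28 alternatives), and in RA/Fsk 0 passed. The 3 probe sets of Hsf1, the heat shock factor itself, did not pass against LD in either treatment, and 1 fell in RA/Fsk against HD (-1.0 ± 0.30, adjusted p = 0.0454).

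ER chaperones and stress genes had rises and no falls against LD in FBS. There 13 of 25 ER chaperone probe sets, from 8 of 11 genes, rose and 0 fell, with the smallest adjusted p for P4hb probe set 1, of a disulfide isomerase (1.28 ± 0.18, adjusted p = 3.52e-05), and Serpinh1, a collagen chaperone (2.06 ± 0.35, adjusted p = 0.000228). Serpinh1 was dim, at 14.8 to 54.3 in FBS and 3.6 to 5.0 in LD. Its difference ran from 0.89 to 2.7 log2 over the alternatives, all of which kept the call. In RA/Fsk 2 of the 25 rose, both of Calr, which encodes calreticulin, and 0 fell. Neither Calr call held with the replicate block and only RA/Fsk and LD, and that of probe set 2 was lost under 15 of 29 alternatives (adjusted p up to 0.195). Of 8 probe sets of other stress genes 7 rose in FBS, 4 of Gadd45a, 2 of Hmox1 and 1 of Ddit3, and 0 passed in RA/Fsk. Against FBS, 7 ER chaperone and 5 stress gene probe sets were lower in RA/Fsk past the threshold, where 10.1% of all probe sets fell. Against LD, 13.2% of all probe sets rose in FBS and 4.71% in RA/Fsk.

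The likeness of other genes to the members was ranked by Pearson r over the 14 culture values, among up to 3648 single-symbol probe sets at or above the median mean. This is a description, since cultures share groups. Cryab probe set 1 was most like 2 probe sets of Sparc, a matrix glycoprotein, both at r = 0.99, and 1 of Anxa5, a phospholipid-binding annexin, at r = 0.986. Sparc probe set 1 read 1803, 2182, 1747 and 2065 in FBS, 128, 187, 116 and 137 in RA/Fsk, 58.5, 63.6 and 63.3 in HD, and 66.6, 31.7 and 50.7 in LD. Anxa5 read 1933, 2317, 2050 and 1859 in FBS, 340, 329, 422 and 330 in RA/Fsk, 156, 213 and 178 in HD, and 165, 130 and 154 in LD. Both had Cryab's step between FBS and RA/Fsk and a smaller one between RA/Fsk and the progenitors.

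**Figure D4:**
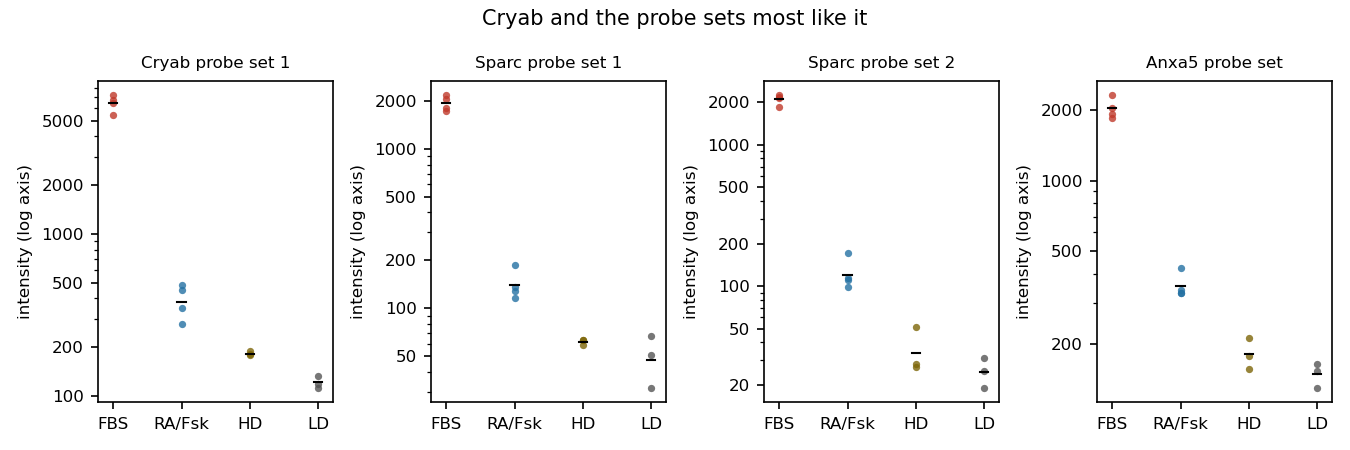
Intensity by culture, on log axes, of Cryab probe set 1 and the 3 probe sets most like it over the 14 cultures. Points are cultures and short lines are means of the log values. In each panel FBS is highest and RA/Fsk comes next, and the Anxa5 values of FBS run from 1859 to 2317.

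Hspd1 probe set 1 was most like Mcm6, a subunit of the replicative helicase (r = 0.953), Sfpq, a splicing factor (0.945), and Map3k1, a MAP kinase kinase kinase (0.944). Their group means differed from LD by -2.03, -1.25 and -2.19 log2 in FBS and by -1.0, -0.63 and -1.21 in RA/Fsk. For the brightest probe set of Hsp90aa1 the nearest were Cand1 (0.879), Dhx9 (0.868) and Canx (0.858). For Hspa8 they were Pgap2 (0.825), Snrk (0.824) and S100g (0.824), and for Hspb1 Slc18a3 (0.933), C1qtnf6 (0.904) and Cyp3a23-3a1 (0.902).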

How the data were processed

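The deposited table gives 1 intensity for each of 8799 probe sets on each of 20 rat arrays. How background, probe summary and scaling were handled is not given in the sources used. Inferred from the values and not per the labels, the deposited intensities were scaled to a common trimmed mean. The 59 control probe sets were left out. Deposited intensities were taken as log2(intensity + 4.99), 4.99 being 10% of the median positive value, and arrays of a group with the same number were averaged. A linear model was fitted with limma 3.58.1 (R 4.3.3; lmFit and trended eBayes; 10 residual and 6.128 prior degrees of freedom) to all 14 cultures, and p-values were adjusted over 8740 probe sets. The fit was tested on simulated data. Of the probe sets tested 7006 carry 1 symbol, 308 several and 1426 none. Precision is limited by how few arrays there are.

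The members, lists, tests and alternatives were chosen with earlier results of these data known. Every member probe set is given, the dimmer ones by ranges or differences. Of the other lists, up to 4 genes with the smallest adjusted p were to be named per comparison, and the text takes its examples from these. Hspb2, Hsf1, Gadd45a, Hmox1, Ddit3 and others given only to identify small counts were chosen after their values were seen. Likeness took the 3 nearest single-symbol probe sets of other genes.

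Numbers in the labels recur between groups. Deviations from the group means of same-numbered LD and RA/Fsk cultures correlated at r = 0.108 to 0.327 over 3 pairs, against -0.202 to 0.05 for other numbers, so these were taken as paired. In the other pairs of groups the lowest value was under 0.1. Start regions and loci come from RefSeq tables of GRCr8, where 9 of 10 members were found. Alternatives covered normalization, pseudocount, dim probe sets, averaging of arrays, a replicate block, the trend, the samples fitted, the GAPDH ratio and leaving out each culture.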

Additional observations from a re-analysis of the deposited data

Results flagged for a closer look

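In groups of 4 cultures a single culture was looked at again when its gap to the nearest other culture exceeded Dixon's 95% limit as a share of the range. Of 212 groups tested 14 met this, and 1 of the 54 member groups, where chance gives about 1 in 20. The member is Hspb1 probe set 4, where RA/Fsk culture 1 read 34.7 and the other 3 read 22.7 to 24.1. RA/Fsk culture 3 stood above the rest of its group past this limit in 4 probe sets of stress genes. It read 1217 for Hmox1 probe set 1 (others 91.9 to 125), 4069 for Hmox1 probe set 2 (others 446 to 473), 413 for Gadd45a probe set 2 (others 118 to 138) and 1066 for Ddit3 (others 212 to 257). Within the limit, RA/Fsk culture 3 was also highest for Gadd45a probe sets 1, 3 and 4, at 177, 24.2 and 103. The others there read 36.9 to 73.4, 14.1 to 22.1 and 35.1 to 62.3. For Sqstm1, of the same list, RA/Fsk culture 3 was lowest at 15.9 (others 56.6 to 166). In the same culture Cryaa read 17 (others 113 to 140). RA/Fsk culture 1 was lowest for Calr probe set 2 at 379 (others 663 to 742), St13 probe set 1 at 116 (others 156 to 163) and Dnaja1 probe set 2 at 693 (others 991 to 1052), and RA/Fsk culture 2 was highest for Trap1 at 490 (others 422 to 432). In FBS, culture 2 read 188 for Dnaja4 probe set 2 (others 225 to 231) and 90.3 for Pdia3 probe set 1 (others 69.4 to 71.8). FBS culture 1 read 206 for Hyou1 probe set 1 (others 217 to 219), and FBS culture 4 read 88.9 for Dnajc5 probe set 3 (others 57.1 to 61.0).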

How the results depend on the processing

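Cryab, Hspd1 and Hspe1 probe set 1 kept their calls in FBS against LD under all 28 alternatives, as did Cryab in RA/Fsk against LD under 29. The range for Cryab probe set 1 was 5.40 to 5.90 log2 in FBS and 1.43 to 1.76 in RA/Fsk. Among the member values that passed as reported, 1 reversed, that of Hsp90ab1 probe set 1 in FBS against LD at 0.04 under quantile normalization, which also left 5 falls there in place of 8. In RA/Fsk against LD the count of falls was 3. It was 1 with median centring, without an intensity trend, with only these groups, and with the replicate block and only these groups. It was 5 without the dimmer 25% and with each array as a sample, also with the culture as a random block, and 6 without the dimmer 50%. The cause was not tested. Leaving out a culture gave 1 to 6 falls, with 1 without LD culture 3 or 4 and 6 without RA/Fsk culture 4. In HD against LD 2 rose and 1 fell with each array as a sample, and 1 fell with the random block. In RA/Fsk against FBS 1 rose, against 0 as reported, with quantile normalization, median centring, only these groups, the replicate block, the GAPDH covariate and without the dimmer 50%, and 0 to 2 rose without single cultures (2 without HD culture 4). There 4 fell, against 7, with the GAPDH covariate and without the dimmer 50%, which removes 6 of the 27 probe sets. In FBS against HD 3 fell, against 5, without an intensity trend, and 3 to 5 without single cultures (3 without HD culture 2 or FBS culture 4). Median centring moved the median of all differences in FBS against HD to -0.16, against 0.03. Calls up and down there became 722 and 1137, against 984 and 848, and in RA/Fsk against FBS 852 and 687, against 723 and 883. Of the other lists, ER chaperone rises in FBS ran from 9 to 15 and stress gene rises from 6 to 7. In RA/Fsk the ER count ran from 0 to 4. In RA/Fsk against LD the replicate block in the fit of all groups changed the 3 member calls given in the report and no other. The replicate block with only LD and RA/Fsk was chosen after seeing the data.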

Other observations

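HD culture 4 read 791 for Ddit3, while HD cultures 1 and 2 read 135 and 103. Groups of 3 were not tested for such values.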
